A study of Mus musculus with 10 samples.

Results

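The transcription factor Myc, its dimer partners, the factors that build ribosomes and 2 enzymes of polyamine synthesis were examined in cultured mouse tongue epithelial cells by bulk RNA-seq. The members are a list of 40 gene symbols, set by symbol with no level in the rule, but with earlier results of these data known, and all 40 were found among the 18586 rows of the deposited table and among the 11630 genes tested. EY cells (Krt14-CreERT, LSL-rtTA and tetON_H2B-GFP together with tetON_E6-E7 and tetON_YAP1S127A) can express the human papillomavirus oncogenes E6 and E7 and a constitutively active YAP1 under a tetracycline-responsive promoter, in cells in which the Krt14 promoter has driven the recombinase. N cells (Krt14-CreERT, LSL-rtTA and tetON_H2B-GFP alone) carry the same driver, transactivator and green fluorescent histone reporter and neither oncogene. Cells were taken 15 days after induction, cultured, sorted for the reporter and returned to culture. According to the paper, induction was by tamoxifen and doxycycline, and doxycycline in the medium kept the transgenes active. The 6 EY libraries are of 3 cultured lines with 2 libraries each, EY3960 (EY replicates 1 and 4), EY4028 (2 and 5) and EY4174 (3 and 6). The 4 N libraries are all of line N4172, so that genotype and line cannot be told apart, and p-values measure the spread between libraries of few cultures, not between animals.

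Ribosome production is the main biosynthetic task of a growing cell. RNA polymerase I transcribes the ribosomal RNA precursor in the nucleolus, small nucleolar ribonucleoproteins (snoRNPs) guide its chemical modification, the small subunit processome cuts and folds the part that becomes the small subunit, and a separate set of helicases, scaffolds and GTPases matures the large subunit. MYC, paired with MAX, binds E-box motifs and is known to raise transcription of many of these factors and of Odc1, while MXD proteins compete for MAX and repress. In stratified epithelia, Myc is active in the basal, dividing compartment.

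Levels were read as TPM (transcript abundance scaled by length and to the same sum in each library). They are shares, so the read depth is unknown, and in bulk RNA less transcript per cell and fewer cells of a type cannot be told apart. Between 10852 and 11522 genes reached 1 TPM per library, and mitochondrially encoded transcripts took 14.1% to 20.5%. Yap1 lay between 34.7 and 57.1 TPM in EY and between 17.2 and 20.9 TPM in N. All 8 epithelial markers examined, Krt5 and Krt14 among them, were expressed, with sums of 4255 to 7219 TPM in EY and 5262 to 5990 in N. Of the other markers listed, 2 of 6 fibroblast, 3 of 4 endothelial, 2 of 5 skeletal muscle and 3 of 6 immune genes had a row. None of the fibroblast, endothelial or muscle rows reached 1 TPM in any library, and the same held for the immune genes Ptprc and Csf1r. Cd68 reached 71.8 TPM and the melanocyte gene Mlana 2.88 TPM. Fold changes are log2 differences on log2(TPM + 1), each with its standard error, and adjusted p-values are of limma with Benjamini-Hochberg adjustment over all 11630 genes. A gene was called at an adjusted p under 0.01 and a fold change over 1 in size. N replicate 4 stood apart from the other N libraries for Npm1, Ncl and Mxd1, and results that rest on it are also given without it. This library was singled out from the values of these same members, and leaving it out also changes the spread shared by all lines.

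The first comparison asks which members differ between cells with both oncogenes and cells without. Myc and the large subunit factor Bop1 were higher in EY, the nucleolar GTPase Gnl3 was lower, and the other 37 members did not pass an adjusted p of 0.01. The 2 members higher are 5.0% of the 40 members, where 6.84% of all genes tested were higher. The 1 member lower is 2.5%, where 5.0% of all genes were lower. No member was called at a fold change over 1, against 3.55% of all genes, and 15 members had an unadjusted limma p under 0.05 (10 higher, 5 lower), which is 37.5% of the members and 37.5% of all genes. The EY and N libraries did not overlap for 5 members that lay higher in EY (Bop1, Odc1, Rrp9, Imp4 and Nhp2, 12.5% of the members) and for 1 that lay lower (Gnl3). Among all genes these shares were 11.3% and 9.10%. The fold change was above 0 for 27 of the 40 members (67.5%) with a median of 0.11, and for 53.96% of all genes with a median of 0.03. Under quantile scaling it was above 0 for 22 members (55%).

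**Figure D1:**
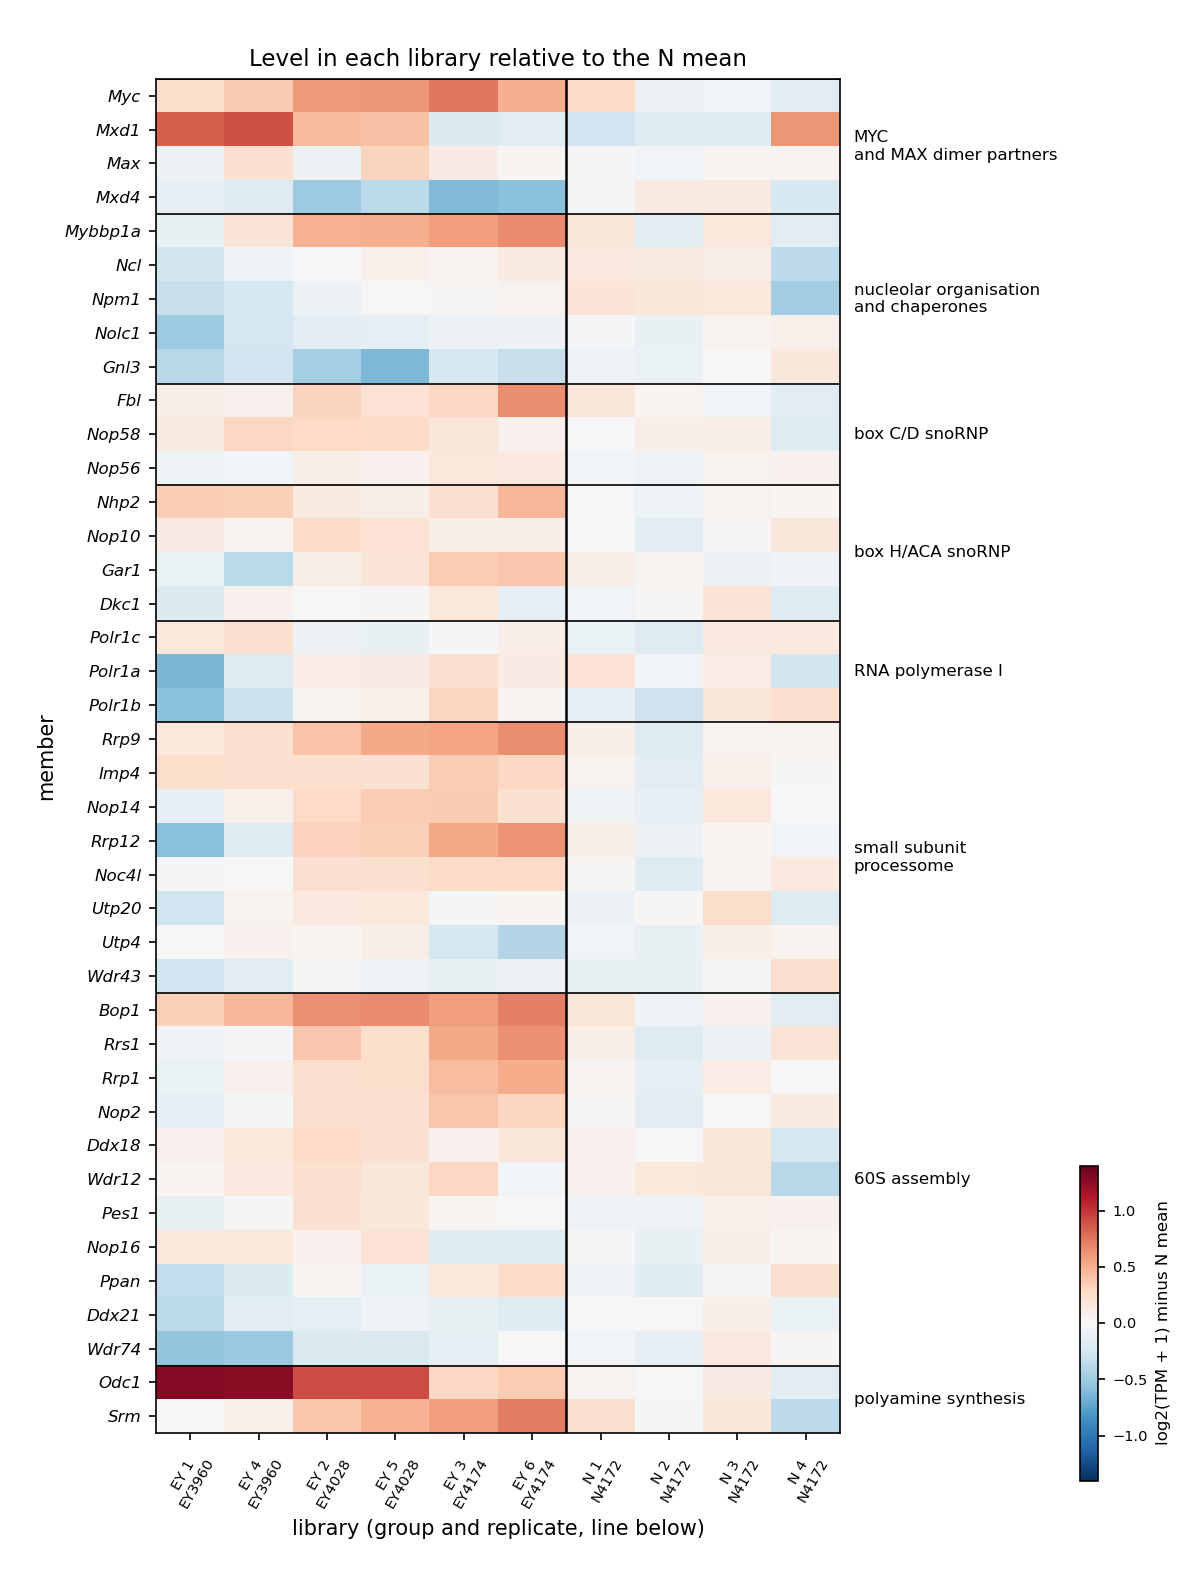
Level of each of the 40 members (rows, grouped by role) in each of the 10 libraries (columns, ordered by line), drawn as log2(TPM + 1) minus the mean of the 4 N libraries; red is above and blue below the N mean. Odc1 is the deepest red row and fades from EY3960 to EY4174, whereas many rows below Myc are palest or blue in EY3960 and reddest in EY4174.

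Myc, the factor that gives the list its name, was measured at 29.4 and 32.1 TPM in EY3960, 37.5 and 38.1 in EY4028, 41.5 and 35.2 in EY4174, and 29.8, 23.1, 23.95 and 22.03 in N replicates 1 to 4. In all, 5 of the 6 EY libraries lay above all N libraries, and the EY3960 library with the lowest value lay just below the highest N library. The means were 35.6 ± 4.39 TPM for EY against 24.7 ± 3.48 for N (SD, n = 6 and n = 4), which is a fold change of 0.51 ± 0.11 (95% interval 0.26 to 0.76, adjusted p 0.00711). Set against N line by line, the fold change was 0.31 (adjusted p 0.0847) for EY3960, 0.60 (0.00435) for EY4028 and 0.62 (0.00406) for EY4174. The difference between the lines did not pass its test (adjusted p 0.215). The adjusted p of Myc was above 0.01 in 16 of the 24 other fits, among them the fit without N replicate 4 (0.0193).

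The other 3 members of the dimer network, Max, Mxd1 and Mxd4, did not pass the test of EY against N. Max, which MYC and the MXD proteins both need for DNA binding, lay at 31.2 ± 3.56 TPM for EY against 29.2 ± 0.8704 for N (fold change 0.08 ± 0.09, adjusted p 0.543). Mxd1, a repressor that rises when epithelial cells leave the cycle, had few transcripts, with 2.79 and 2.93 TPM in EY3960, 1.87 and 1.81 in EY4028, 0.853 and 0.904 in EY4174, and 0.756, 0.873, 0.88 and 2.25 in N replicates 1 to 4. EY3960 and N replicate 4 were the high libraries, and the groups overlapped (fold change 0.37 ± 0.26, adjusted p 0.321). Line by line with all libraries, Mxd1 did not pass in EY3960 (0.87, adjusted p 0.0157) or in EY4028 (0.42, 0.183). Without N replicate 4, Mxd1 had fold changes of 1.07 in EY3960 (adjusted p 7.19e-05) and 0.63 in EY4028 (0.00279). That library was singled out by its Mxd1 level, among others, so these p-values are no test of Mxd1. Mxd4, another MAX-binding repressor, lay at 1.36 to 2.35 TPM across EY against 2.102 to 2.95 across N, for a fold change of -0.39 ± 0.14 (adjusted p 0.0598). With all libraries, Mxd4 did not pass in EY4028 (-0.44, adjusted p 0.0367) or in EY4174 (-0.59, 0.0102). Without N replicate 4, Mxd4 was lower in EY4028 (-0.52, adjusted p 0.00831) and in EY4174 (-0.67, 0.00205).

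Over the 10 libraries, the genes whose log2(TPM + 1) followed Myc most closely were Clstn1 (Pearson's r 0.979), Iqgap3 (0.975), Dync1h1 (0.974), Gas2l1 (0.973) and Ube2z (0.9705), the 5 highest of all genes tested. Among the members, Bop1 was closest to Myc (0.951), followed by Rrp9 (0.892), Mybbp1a (0.8697), Imp4 (0.847) and Srm (0.835). Mxd4 (-0.815) and Gnl3 (-0.781) ran most opposite to it. These values describe 10 libraries of 4 lines, which share their line and the scaling to a common sum, and are not tests.

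Because the MYC and MAX dimer recognises the E-box CACGTG, the promoters of the members were searched for these letters, which read the same on both strands. RefSeq promoter windows of build GRCm38.p6, from 250 bases before to 50 bases after the transcription start, were matched by symbol for 33 of the 40 members. The members without an entry are Myc, Npm1, Fbl, Bop1, Rrp12, Rrs1 and Srm. The motif stood in the windows of 9 of the 33 members (27.3%), against 7.15% of all windows and 12.3% of the tested genes that have a window. In 6 of the 9 it lay across or after the start, and the 250 bases before the start alone held it in 3 members (9.09%) and in 10.3% of the tested genes. The looser letters CANNTG, of which CACGTG is one case, were in 22 of the 33 members (66.7%) and in 66.2% of the tested genes. The 3 members with the motif before the start are shown with 30 bases on each side, in the direction of transcription, with the motif in capitals, so that the letters around it can be compared.
Imp4: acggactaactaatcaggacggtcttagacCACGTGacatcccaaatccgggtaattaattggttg
Mxd4: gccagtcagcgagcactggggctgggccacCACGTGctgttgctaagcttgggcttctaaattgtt
Nop2: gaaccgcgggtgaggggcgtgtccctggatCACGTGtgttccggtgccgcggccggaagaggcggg
The Imp4 stretch is chr1:34439678-34439743 on the plus strand, with the motif beginning 121 bases before the start. The Mxd4 stretch is chr5:34187894-34187959 on the minus strand, with the motif beginning 219 bases before the start. The Nop2 stretch is chr6:125131793-125131858 on the plus strand, with the motif beginning 60 bases before the start. None of the 3 passed the test of EY against N, with fold changes of 0.26 for Imp4, -0.39 for Mxd4 and 0.17 for Nop2. The other members with the motif, in the order of the list, are Max, Pes1, Wdr43, Utp4, Utp20 and Mybbp1a.

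Of the 5 members that organise the nucleolus or act there as chaperones, Gnl3 was lower in EY and none was higher (1 had an unadjusted limma p under 0.05 and a higher level). Gnl3 (nucleostemin), a GTPase of the nucleolus known from stem and dividing cells, was measured at 154 and 167 TPM in EY3960, 145 and 129.9 in EY4028, 172 and 160.5 in EY4174, and 192, 188, 202 and 224 in N replicates 1 to 4. Every EY library lay below every N library, at 155 ± 15.5 TPM for EY against 202 ± 16.2 for N on average, and the fold change was -0.38 ± 0.09 (adjusted p 0.00855). The adjusted p of Gnl3 was above 0.01 in 16 of the 24 other fits, at 0.0203 without N replicate 4. Exons of Gnl3 overlap exons of Pbrm1 on the other strand, which lay at 12.9 to 20.1 TPM across EY against 19.3 to 23.02 across N, so that reads of the pair cannot be told apart unless strand was used in counting.

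Npm1 (nucleophosmin), the chaperone of the granular nucleolus, was the highest member of the list at 2083 and 2186 TPM in EY3960, 2458 and 2593 in EY4028, 2626 and 2682 in EY4174, and 2938, 2905, 2885 and 1855 in N replicates 1 to 4. N replicate 4 was the lowest of all 10 libraries and the other N libraries were the highest, and the groups overlapped (fold change -0.10 ± 0.13, adjusted p 0.6246, 95% interval -0.39 to 0.19). Line by line with all libraries, Npm1 did not pass in EY3960 (-0.28, adjusted p 0.234) or in EY4028 (-0.04, 0.874). Without N replicate 4, Npm1 had fold changes of -0.45 in EY3960 (adjusted p 5.59e-05) and -0.20 in EY4028 (0.00896). That library was singled out by its Npm1 level, among others, so these p-values are no test of Npm1. Ncl (nucleolin), which binds ribosomal RNA, was measured at 634 and 726 TPM in EY3960, 754 and 798 in EY4028, 783 and 826 in EY4174, and 835, 829.8, 808 and 588 in N replicates 1 to 4. N replicate 4 was again the lowest library, and the fold change was -0.01 ± 0.11 (adjusted p 0.946). With all libraries, Ncl did not pass in EY3960 (-0.16, adjusted p 0.411). Without N replicate 4, Ncl had a fold change of -0.28 in EY3960 (adjusted p 0.00635), which is no test of Ncl for the same reason. Nolc1, a chaperone of snoRNPs, lay at 79.3 to 107 TPM across EY against 105 to 119 across N (-0.20 ± 0.09, adjusted p 0.13). Mybbp1a, a nucleolar partner of the polymerase, had 87.4 ± 16.5 TPM for EY against 65.97 ± 8.06 for N, for a fold change of 0.39 ± 0.14 (adjusted p 0.0723).

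The snoRNP proteins lay between 59.1 TPM (Gar1) and 516 TPM (Nop56) as group means. None of the 3 box C/D proteins, which carry out methylation of ribosomal RNA, passed the test, and 2 of them had an unadjusted limma p under 0.05. Fbl (fibrillarin), the methyltransferase itself, lay at 157 to 237 TPM across EY against 136 to 168 across N, for a fold change of 0.27 ± 0.11 (adjusted p 0.0991), and its scaffold partners Nop58 and Nop56 had 0.20 (adjusted p 0.0785) and 0.06 (0.573). None of the 4 box H/ACA proteins, which serve pseudouridylation, passed, with 1 at an unadjusted limma p under 0.05. Nhp2 was measured at 418 and 415 TPM in EY3960, 359 and 348 in EY4028, 383 and 455 in EY4174, and 327, 313, 339 and 336 in N replicates 1 to 4. The lowest EY library lay above the highest N library, and the fold change was 0.26 ± 0.08 (adjusted p 0.0324). The pseudouridine synthase Dkc1 (-0.01, adjusted p 0.922), Gar1 (0.09, 0.672) and Nop10 (0.13, 0.233) overlapped between the groups. Summed over the 4 proteins, the box H/ACA levels were 662 to 758 TPM in EY and 593 to 643 in N, a sum of which Nhp2 is the largest part. Summed over the 3 box C/D proteins, they were 1074 to 1202 TPM in EY and 1007 to 1085 in N, so that the groups overlapped.

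The 3 RNA polymerase I subunits among the members did not pass the test in either direction. The catalytic subunits Polr1a and Polr1b lay at 12.3 ± 2.62 TPM for EY against 12.6 ± 1.83 for N and at 18.3 ± 3.903 TPM for EY against 19.1 ± 3.34 for N, with fold changes of -0.04 ± 0.17 (adjusted p 0.874) and -0.07 ± 0.17 (0.788). Polr1c, which RNA polymerase III also uses, had 0.04 ± 0.09 (0.773). The 95% interval was -0.41 to 0.32 for Polr1a, -0.43 to 0.29 for Polr1b and -0.16 to 0.25 for Polr1c. None of the 3 had an unadjusted limma p under 0.05.

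Of the 8 members of the small subunit processome, none passed an adjusted p of 0.01, and 2 had an unadjusted limma p under 0.05, both higher. Rrp9, a protein of the snoRNP that starts the cutting of the precursor, was measured at 33.6 and 35.5 TPM in EY3960, 40.2 and 43.9 in EY4028, 44.6 and 47.7 in EY4174, and 32.2, 26.4, 31.1 and 31.1 in N replicates 1 to 4. All 6 EY libraries lay above the N libraries, with EY3960 nearest to them, and the fold change was 0.42 ± 0.11 (adjusted p 0.0153). Imp4, a protein bound to the same snoRNP, was measured at 57.9 and 57.5 TPM in EY3960, 57.5 and 56.6 in EY4028, 62.3 and 59.9 in EY4174, and 50.6, 44.03, 51.5 and 49.3 in N replicates 1 to 4. It also did not overlap between the groups and varied little among the EY lines, with a fold change of 0.26 ± 0.07 (adjusted p 0.0158). The other 6, all scaffolds or assembly proteins of the processome, had fold changes of 0.19 for Nop14, 0.18 for Rrp12, 0.16 for Noc4l, 0.01 for Utp20, -0.08 for Utp4 and -0.11 for Wdr43, with adjusted p from 0.191 to 0.953.

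Among the 11 members that assemble the large subunit, Bop1 was higher in EY. Bop1 is the scaffold of the PeBoW complex (Pes1, Bop1 and Wdr12), which is needed to process the precursor of the large subunit RNA. It was measured at 34.4 and 37.7 TPM in EY3960, 42.8 and 43.4 in EY4028, 41.3 and 45.02 in EY4174, and 30.7, 25.8, 28.2 and 24.2 in N replicates 1 to 4. Every EY library lay above every N library, at 40.8 ± 3.99 TPM for EY against 27.2 ± 2.84 for N on average, and the fold change was 0.57 ± 0.10 (95% interval 0.36 to 0.78, adjusted p 0.0015). The adjusted p was under 0.01 in 20 of the 24 other fits, 0.00423 without N replicate 4. It was 0.0126 without line EY4028, 0.0433 with the sample number within the line as a block, and 0.0491 with line as a random block. With 1 mean for each line, which leaves 1 value for N, the fold change was 0.57. In each of the last 3 fits, no member passed the limma test of EY against N in either direction, with 9, 7 and 2 members at an unadjusted p under 0.05. Exons of Bop1 overlap those of Mroh1 on the other strand, which lay at 3.19 to 6.37 TPM across EY against 1.93 to 5.89 across N and overlapped between the groups. Nhp2, Rrp9, Mybbp1a, Nop56, Dkc1, Wdr12 and Pes1 also share exonic bases with a protein-coding gene of the opposite strand, and Imp4, Mxd4, Nop14, Wdr43 and Polr1a with an annotated antisense gene.

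The 2 partners of Bop1 in the complex did not pass the test. Pes1 lay at 86.5 ± 7.04 TPM for EY against 83.4 ± 4.38 for N (fold change 0.05 ± 0.08, adjusted p 0.662) and Wdr12 at 67.02 ± 5.68 TPM for EY against 61.6 ± 10.4 for N (0.13 ± 0.11, 0.426). The methyltransferase Nop2 had a fold change of 0.17, Rrs1, which brings a small ribosomal RNA into the large subunit, of 0.29 and the assembly factor Rrp1 of 0.23, with adjusted p of 0.285, 0.163 and 0.16. The helicases Ddx18 and Ddx21 had fold changes of 0.16 (adjusted p 0.192) and -0.17 (0.116), both short of the threshold. Wdr74, a partner of an ATPase that strips factors from maturing particles, had -0.27 (0.0993), while the assembly factors Nop16 and Ppan had 0.03 (0.83) and -0.03 (0.873). Apart from Bop1, no member that assembles the large subunit passed, and 2 of the 11 had an unadjusted limma p under 0.05 with a lower level in EY.

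Of the 40 fold changes, the largest was that of Odc1. This gene encodes ornithine decarboxylase, the rate-limiting enzyme of the pathway and a long-known MYC target. It was measured at 2226 and 2201 TPM in EY3960, 1734 and 1723 in EY4028, 1121 and 1175 in EY4174, and 945, 912, 996 and 826 in N replicates 1 to 4. The libraries of each EY line lay close together, all 6 lay above the N libraries, and the lines formed steps, highest in EY3960 and nearest to N in EY4174. The means were 1697 ± 477 TPM for EY against 919.8 ± 71.5 for N, and the fold change was 0.83 ± 0.20 with an adjusted p just above the threshold (0.0108). Without line EY4174 the fold change was 1.09 and Odc1 was called (adjusted p 7.33e-05). It did not pass without EY3960 (0.62, adjusted p 0.0142), without EY4028 (0.80, 0.0542) or with line as a random block (0.83, 0.0609). Line by line, the fold change was 1.27 (adjusted p 6.08e-07) for EY3960, 0.91 (1.09e-05) for EY4028 and 0.32 (0.0093) for EY4174. Srm, spermidine synthase, had the opposite order of lines, with 81.9 and 85.8 TPM in EY3960, 107 and 115 in EY4028, 123 and 135 in EY4174, and 95.4, 79.99, 92.2 and 62.9 in N replicates 1 to 4. Its groups overlapped, and the fold change was 0.38 ± 0.16 (adjusted p 0.102).

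A pseudogene of Odc1 had the same order of lines. Gm7993, a processed pseudogene whose sequence matches the Odc1 transcript over 1388 bases at 95.7% identity in the GENCODE M21 annotation, was singled out after its values were seen. It was listed at 246 and 242 TPM in EY3960, 179.8 and 188 in EY4028, 64.1 and 73.8 in EY4174, and 0.0378, 0.0408, 0 and 0 in N replicates 1 to 4. In EY it amounted to 11.1% and 10.98% of the Odc1 level in EY3960, 10.4% and 10.9% in EY4028, and 5.72% and 6.28% in EY4174. The limma test of EY against N gave an adjusted p of 2.98e-06 for this row, and no fold change is given against levels at or near 0. A read that matches both Odc1 and its copy can be given to either, so that both levels are uncertain. When the rows of pseudogene copies were added to their members, a setting chosen after seeing the data, the fold change of Odc1 was 0.96 (adjusted p 0.00821). The copies of Npm1, Fbl, Nop56, Dkc1 and Srm in the table summed to at most 3.98 TPM for any of these members. The Nop56 copy Gm1947 lay at 2.37 to 3.52 TPM across EY against 0.992 to 1.33 across N without overlap.

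**Figure D2:**
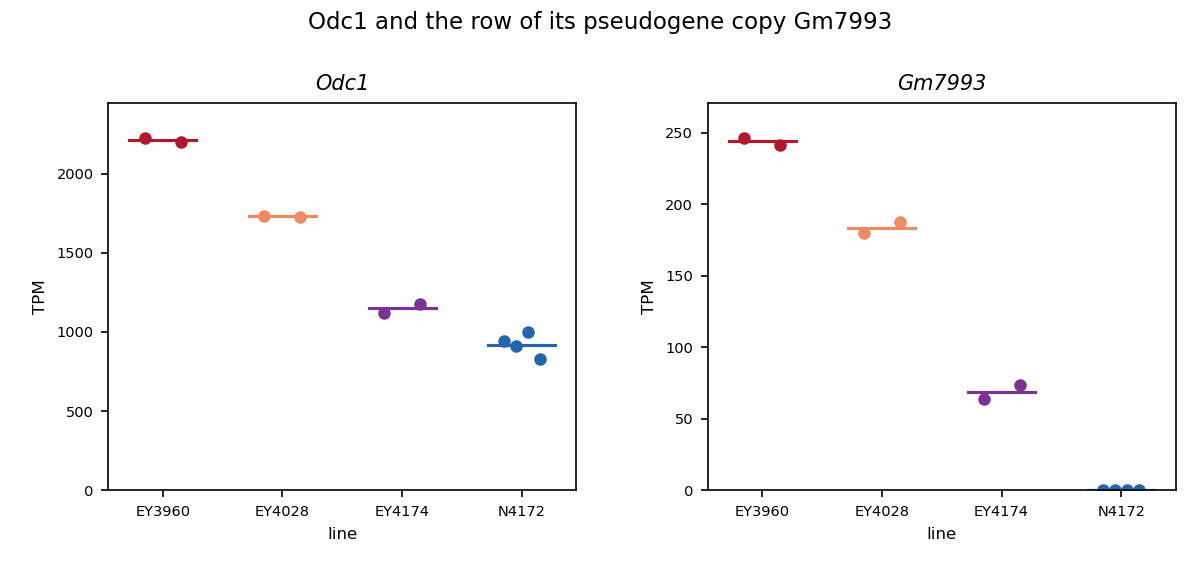
TPM of Odc1 (left) and of its processed pseudogene Gm7993 (right) in each library, by line; points are libraries and bars are line means, with both axes from 0. Both rows step down from EY3960 through EY4028 to EY4174, and Gm7993 lies at or near 0 in all 4 N libraries.

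**Figure D3:**
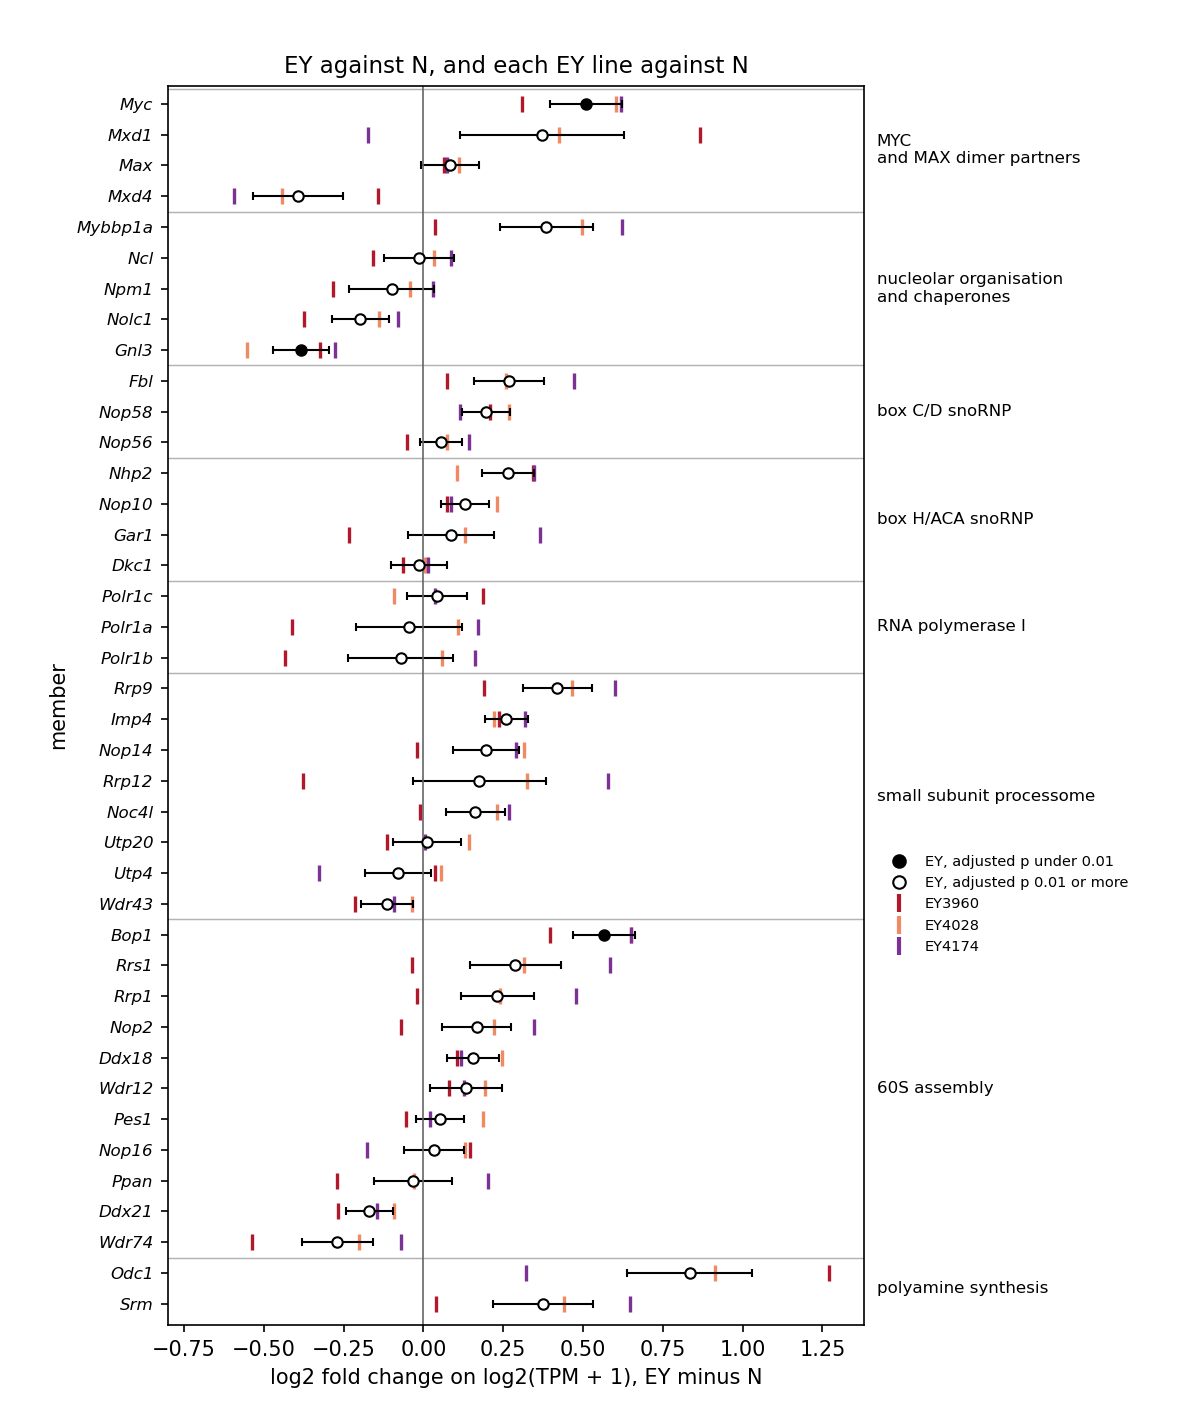
Log2 fold change of each member on log2(TPM + 1), EY minus N, as circles with standard errors (filled at an adjusted p under 0.01), and the fold change of each EY line against N as coloured ticks. Bop1, Myc and Gnl3 carry filled circles, and the tick of EY3960 lies left of the others for most ribosome biogenesis members, while for Odc1 it lies farthest right.

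Each EY line was next compared with N on its own, in 3 comparisons that share the N libraries. In EY3960, Odc1 and Nhp2 were higher (2 members, 5.0%, against 9.94% of all genes) and Wdr74 and Nolc1 were lower (2 members, 5.0%, against 7.06%). In EY4028, 5 members were higher (Bop1, Myc, Odc1, Rrp9 and Mybbp1a, 12.5%, against 10.9%) and Gnl3 was lower (1 member, 2.5%, against 5.83%). In EY4174, 11 members were higher (27.5%, against 7.32%), namely Myc, Bop1, Rrp9, Mybbp1a, Odc1 and Nhp2 with Rrp1, Rrs1, Rrp12, Srm and Fbl. None was lower in EY4174 (against 8.26%), where 4 members had an unadjusted limma p under 0.05 and a lower level. Odc1 was the member that passed in all 3 lines. In EY3960 and in EY4028 it also passed in all 19 other fits. In EY4174 its adjusted p was above 0.01 in 14 of the 19. The same held for Fbl in EY4174 in 14 fits, Srm in 11 and Rrp12 in 9. It held for Nhp2 in 12 fits in EY3960 and 12 in EY4174. It held for Mybbp1a in EY4028 in 11 fits and for Nolc1 in EY3960 in 10.

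The counts of single lines rest on 2 libraries each. Without EY replicate 6, in which Fbl was high, no member passed the limma test as higher in EY4174, and without EY replicate 3 the count was 4. When any 1 library of another line or of N was left out, the count in EY4174 ran from 5 to 13. Without N replicate 4, 3 members were higher and 5 lower in EY3960, and 8 higher and 3 lower in EY4028. In EY4174, 13 were higher and 2 lower. The counts in EY3960 and EY4028 without N replicate 4 include Npm1 and Mxd1, by which that library was singled out. That of EY3960 also includes Ncl, another such member. For fits that leave out a library, shares of all genes were not counted. The members with the largest fold changes in EY4174 were Bop1 (0.65, adjusted p 0.00111), Srm (0.65, 0.00716), Mybbp1a (0.62, 0.0029), Myc and Rrp9 (0.60, 0.00122). In EY3960, the fold changes of the same genes were 0.40 for Bop1, 0.04 for Srm, 0.04 for Mybbp1a and 0.19 for Rrp9. Wdr74 had -0.54 in EY3960 (adjusted p 0.000766) and -0.07 in EY4174 (0.57), and Nolc1 had -0.37 (0.00896) and -0.08 (0.534).

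The lines were then set against one another, which needs its own test. The 3 EY lines differed at an adjusted p under 0.01 for 3 members (7.5%), against 8.55% of all genes. No member also had a gap over 1 on the log2 scale between lines, against 5.12% of all genes. An unadjusted p of the limma F test under 0.05 was seen for 22 members, a count without a share of all genes beside it. The 3 members are Odc1 (largest gap 0.95, adjusted p 9.07e-05), Rrp12 (0.96, 0.00248) and Gar1 (0.60, 0.00922). Rrp12, which takes part in the export and maturation of both subunits, was measured at 7.24 and 10.02 TPM in EY3960, 14.5 and 14.6 in EY4028, 16.9 and 18.1 in EY4174, and 12.2, 10.7, 11.6 and 11.01 in N replicates 1 to 4. EY3960 lay below N and EY4174 above it, so that the group means differed little (fold change 0.18 ± 0.21). Gar1, measured at 55.4 and 45.3 TPM in EY3960, 62.5 and 67.1 in EY4028, 75.7 and 77.1 in EY4174, and 63.1, 60.8, 55.5 and 57.1 in N replicates 1 to 4, had the same order of lines. Without N replicate 4, 12 members differed between the lines, and the share of all genes was not counted in that fit. The test concerns the EY libraries, but the libraries of all lines share 1 estimate of the spread. The added members were Srm, Mxd1, Rrs1, Npm1, Rrp1, Wdr74, Mybbp1a, Utp4 and Ppan. Among them, Mxd1 and Npm1 are members by which N replicate 4 was singled out.

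**Figure D4:**
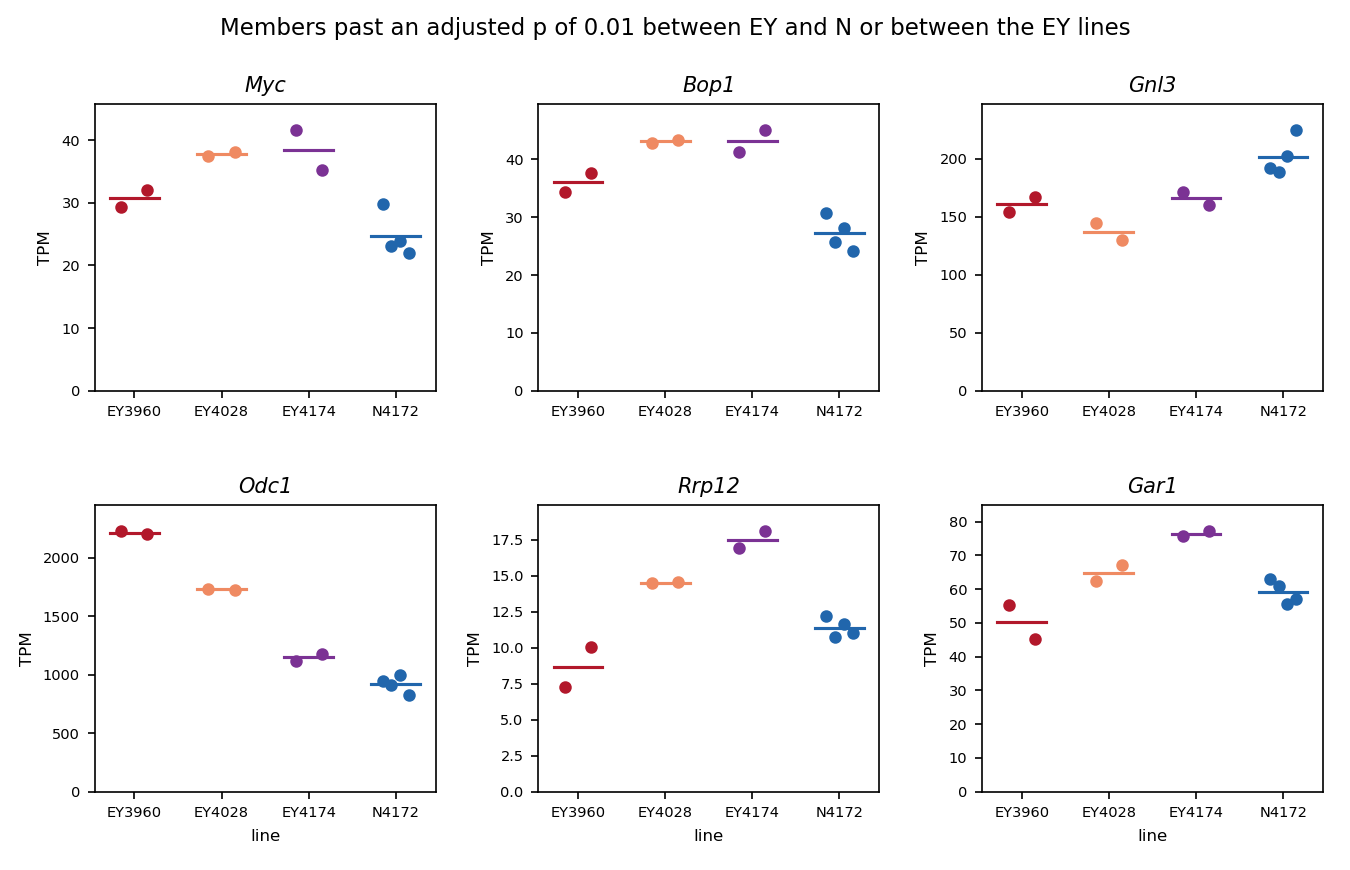
TPM per library, by line, of the 6 members that passed an adjusted p of 0.01 between EY and N or between the EY lines; points are libraries, bars are line means and axes start at 0. Myc and Bop1 are lowest in EY3960 among the EY lines, Rrp12 and Gar1 step up from EY3960 to EY4174, and Odc1 steps down.

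The order of the lines was shared by most members that build ribosomes. EY3960 had the lowest mean of the 3 EY lines for 27 of these 34 members (79.4%), against 37.9% of all genes tested. EY4174 had the highest mean for 22 of the 34 (64.7%), against 25.6%. Among the 168 tested genes of the pathway lists that are not members, these shares were 47.02% and 37.5%. Fold changes against N were above 0 for 13 of the 34 members in EY3960, 26 in EY4028 and 27 in EY4174. The medians of these fold changes were -0.04, 0.14 and 0.14, where those of all genes were 0.01, 0.09 and -0.01. The orders are counts of line means, of which most single differences did not pass the test between the lines.

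In sum, the 34 members took 5929.8 and 6319 TPM in EY3960, 6771 and 6895 in EY4028, 7024 and 7177 in EY4174, and 7048, 6897, 7126 and 5723 in N. The EY mean was 6686 ± 472 TPM and the N mean 6699 ± 657, a difference smaller than either spread. Npm1 was the largest single part of each sum, and without it the means were 4248 ± 230.3 TPM in EY and 4053 ± 159.9 in N. N replicate 4, low for Npm1 and Ncl, set the lowest sum of all libraries when Npm1 was counted.

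**Figure D5:**
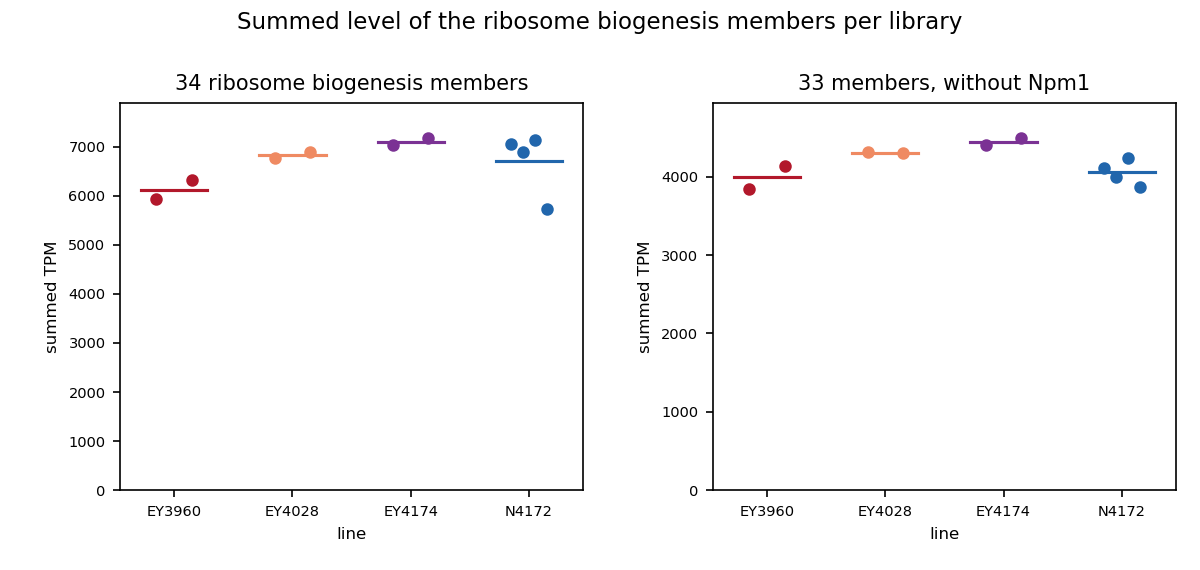
Summed TPM of the 34 ribosome biogenesis members (left) and of the same members without Npm1 (right) in each library, by line; points are libraries, bars are line means and axes start at 0. The sums rise from EY3960 to EY4174 and the N libraries lie within the range of the EY libraries, apart from N replicate 4 in the left panel.

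The rest of the pathway was read from 7 lists of 172 further genes, of which 168 were tested. Of these, 11 were higher in EY (6.55%, against 6.84% of all genes) and 3 were lower (1.79%, against 5.0%) at an adjusted p under 0.01. The fold change was above 0 for 64.9% of them, with a median of 0.06, and for 53.96% of all genes, with a median of 0.03. In the list of large subunit factors, 4 of 51 were higher and none was lower (5 lower at an unadjusted limma p under 0.05). They include the helicase Ddx27 (45.8 ± 4.42 TPM for EY against 27.2 ± 0.795 for N, fold change 0.72, adjusted p 0.000105), Eif6, which keeps the finished subunits apart (441 ± 72.3 TPM for EY against 258 ± 13.6 for N, 0.76, adjusted p 0.000681), and Ebna1bp2 (0.44, adjusted p 0.00107). In the list of the small subunit, 2 of 44 were higher, Wdr36 (0.60, adjusted p 0.000853) and the helicase Ddx49 (0.49, adjusted p 0.00483), and none was lower (3 at an unadjusted limma p under 0.05). Of 19 RNA polymerase I subunits and factors, Polr1e (0.50, adjusted p 0.000582) and Polr2l, a subunit shared by all 3 nuclear polymerases (0.55, adjusted p 0.00143), were higher and 2 were lower, with Twistnb, the older symbol of Polr1f, at -0.44 (adjusted p 0.00597).

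In the MYC network, 1 of 12 tested genes was higher, Mga, a MAX partner that can repress MYC targets (46.3 ± 9.299 TPM for EY against 29.5 ± 1.505 for N, 0.61, adjusted p 0.00917), and none was lower (1 at an unadjusted limma p under 0.05). Mycn and Mlxipl fell below the filter and were not tested. Mycn lay at 0.224 to 0.806 TPM across EY against 0.97 to 1.54 across N, without overlap. None of the 7 snoRNP assembly factors and none of the 8 other polyamine genes passed, with 1 and 2 at an unadjusted limma p under 0.05. Among 27 other canonical MYC targets, the nucleotide synthesis enzymes Ctps (0.54, adjusted p 0.00265) and Nme1 (0.42, adjusted p 0.00313) were higher. The cyclin gene Ccnd2 was lower and the only one of the 168 to be called, at 39.5 and 44.6 TPM in EY3960, 56.8 and 59.4 in EY4028, 65.7 and 51.7 in EY4174, and 282, 100.4, 217 and 125 in N replicates 1 to 4. Its EY libraries all lay below the N libraries, with 52.9 ± 9.73 TPM for EY against 181 ± 83.9 for N, for a fold change of -1.65 ± 0.27 (adjusted p 0.00197). Outside the rule for naming genes, the remaining genes past the threshold were Gnl2 (0.36, adjusted p 0.00197) and Taf1d (-0.43, adjusted p 0.00893), named after their values were seen.

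Several members are hosts of snoRNA genes, whose products guide the modification that other members carry out. By GENCODE M21, 8 of the 40 members (20%) held at least 1 annotated snoRNA gene on the same strand within their bounds, 22 in all, against 2.39% of the tested genes with an entry. The hosts are Ncl, Nop56, Nop58, Dkc1, Wdr43, Gnl3, Ppan and Odc1. Gnl3 was lower in EY and the other 7 did not pass the test. Odc1 lay above N in every EY library, and the remaining 6 had fold changes from -0.11 (Wdr43) to 0.20 (Nop58). Mature snoRNAs lack poly(A) tails, and these libraries were made from poly(A) RNA.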

How the data were processed

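Poly(A) RNA of 6 EY and 4 N libraries was measured by RNA-seq. The authors deposited 1 table of TPM values per gene and library. The submitters' processing notes name STAR 2.7.9, SAMtools 1.7, HTSeq 0.13.5, DESeq2 1.34.0 and GRCm39, and which of these steps made the TPM values, and whether strand was used, is not given in the sources used here. TPM keeps no read depth, so the precision behind each value is unknown beyond the spread between libraries, and a gene's TPM falls when others rise. Columns were mapped to libraries by their titles, and groups and lines were taken from the labels.

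Genes at 1 TPM or more in at least 4 libraries (11630 of 18586) were tested on log2(TPM + 1) with limma 3.58.1 in R 4.3.3, with trend and robust moderation. One fit had groups EY and N, and another had the 4 lines, for each EY line against N and for the F test between the EY lines. The threshold was an adjusted p under 0.01 (Benjamini-Hochberg over all genes tested), and a gene was called with a fold change over 1 in size. The fits were tested on simulated data. The members, gene lists and markers were chosen with earlier results of these data known. All members were named, those past the threshold in EY against N or between the EY lines with every library's value, and from each pathway list up to 3 genes with the smallest adjusted p past the threshold. Members were aligned to GENCODE M21 pseudogene transcripts with BLASTN 2.17.0, and promoters came from RefSeq on GRCm38.p6. Alternatives were the pseudocount, filters, scalings, moderation, sample number block, line as a block, line means, and leaving out each library or line. By the labels, EY replicates 1 to 3 share sample number 1 with N replicate 1, and EY replicates 4 to 6 share number 2 with N replicate 2. N replicates 3 and 4 stand alone in their blocks and add nothing to the difference of EY and N in that fit. Deviations of same-numbered libraries from their group means correlated at -0.12 to 0.04. Those of EY hold the differences between lines, so the values cannot tell whether same-numbered libraries were paired.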

Additional observations from a re-analysis of the deposited data

Results flagged for a closer look

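In 4 of the 80 groups of libraries examined (40 members in EY and in N), 1 library stood far from the others, and chance alone gives about 1 in 20 groups. In N replicate 4, Npm1 was at 1855 TPM where the next lowest N library had 2885 TPM, Ncl was at 588 TPM where the next lowest had 808, and Mxd1 was at 2.25 TPM where the next highest had 0.88. In EY replicate 6, Fbl was at 237 TPM where the next highest EY library had 187 TPM. The cause was not tested.

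The level differed between the EY lines, by the limma F test on 2 libraries per line, for Odc1 (adjusted p 9.07e-05, largest gap 0.95), Rrp12 (0.00248, gap 0.96) and Gar1 (0.00922, gap 0.60). Odc1 was highest in EY3960, whereas Rrp12 and Gar1 were lowest there. Each line is 1 culture, so that differences between lines and between animals of origin cannot be told apart.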

How the results depend on the processing

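Counts of members past an adjusted p of 0.01 are given where they moved by more than 1.5 times from 2 higher and 1 lower in EY against N, 2 and 2 in EY3960, 5 and 1 in EY4028, 11 and 0 in EY4174, and 3 between the EY lines. Under the settings below, shares of all genes past the threshold were not counted. Without a filter on low values, EY against N gave 1 higher and 0 lower, EY3960 1 and 1, and EY4174 6 higher. With a pseudocount of 0.1, or 1 TPM required in every library, 1 member was lower in EY4174. Quantile scaling gave 1 higher in EY against N, 1 higher and 4 lower in EY3960, 2 lower in EY4028, 1 lower in EY4174 and 6 between the lines. Median-of-ratios scaling gave 3 higher in EY4028 and 1 in EY3960, with 0 lower in EY against N. TPM rescaled without mitochondrially encoded genes gave 1 higher in EY against N, 2 lower in EY4174 and 6 between the lines. Limma without trend and robust moderation gave 1 and 0 in EY against N, 1 and 1 in EY3960, 7 and 1 in EY4174, and 2 between the lines.

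With a sample number block, EY against N gave 0 higher and 0 lower. The same block gave 2 higher in EY4028, 6 higher in EY4174 and 5 between the lines. Deviations of same-numbered libraries correlated at -0.12 to 0.04. This cannot tell whether they were paired, since the deviations of EY hold the differences between lines. With line as a random block, and with 1 mean for each line, EY against N gave 0 and 0. Without line EY3960 it gave 5 higher and 0 lower, without EY4028 0 and 0 (10 members at an unadjusted limma p under 0.05), and without EY4174 Odc1 was called (1 member). When 1 library was left out in turn, the counts ran from 1 to 3 higher and 0 to 1 lower in EY against N, 1 to 3 and 0 to 5 in EY3960, 1 to 8 and 0 to 3 in EY4028, 0 to 13 and 0 to 2 in EY4174, and 1 to 12 between the lines. The count between the lines was 12 without N replicate 4 and 1 without EY replicate 6. Members summed with their pseudogene copies, also chosen after seeing the data, gave 3 higher in EY against N. The E-box was in 3 members when only the bases before the start were read and in 22 in its looser form.

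Of 957 fold changes of single members in EY against N under these settings, 868 kept their direction and side of the threshold, 46 crossed the threshold and 43 turned sign, none of the latter past the threshold under either setting. Under quantile scaling, Nop16 had -0.034, Nop56 -0.024, Pes1 -0.023, Utp20 -0.017 and Polr1c -0.021. Under median-of-ratios scaling, Utp20 had -0.018. Without mitochondrial genes, Utp20 had -0.016. With the sample number block, Polr1b had 0.13 and Ppan 0.083. Without line EY3960, Ncl had 0.060, Nop16 -0.024, Dkc1 0.010, Polr1a 0.14, Polr1b 0.11, Polr1c -0.028 and Ppan 0.086. Without line EY4028, Nop16 had -0.016, Pes1 -0.017 and Utp20 -0.055. Without line EY4174, Gar1 had -0.051, Utp4 0.046 and Rrp12 -0.026. With single libraries left out, the fold changes that turned sign ran from -0.13 to 0.036 for Ncl, -0.075 to 0.051 for Dkc1, -0.13 to 0.075 for Polr1a, -0.17 to 0.028 for Polr1b, -0.091 to 0.041 for Ppan, -0.049 to 0.093 for Utp20, -0.0014 to 0.076 for Nop16 and -0.018 to 0.089 for Polr1c. The cause was not tested. TPM carry no depth, and 2 libraries per line limit what each line can show.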
